A study of Mus musculus with 24 samples.

Results

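Keratin genes were followed by RNA-Seq in 4 tissues (tongue, stomach, heart and muscle) of Trex1-/- mice, with and without the STING antagonist SN-011. They were taken as all protein-coding genes of GENCODE release M21 (GRCm38) whose symbol is Krt followed by a number and, in some, a letter, which gave 53 of the 54532 genes counted. Of these, 28 encode type I and 25 encode type II keratins. The keratin-named Krt74 is a pseudogene in this annotation and was not a member. All mice of the 8 groups were Trex1 knockouts on a C57BL/6J background, a model in which loss of the exonuclease TREX1 switches on the cGAS-STING pathway, and no wild-type mice were analysed here. By the labels, the treated mice received this small molecule at 5 mg/kg 3 times a week for 4 weeks, and the controls were Trex1-KO mice without it. The study's methods describe another schedule with intraperitoneal injection and PBS controls, and which of these applied to these samples could not be settled. RNA-Seq of polyA+ RNA gave 3 samples per tissue and treatment, 24 in all.

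Keratins are the intermediate filament proteins of epithelial cells. Each filament is built from pairs of a type I and a type II keratin, and the pair in use marks the kind of epithelium. Krt8 pairs with Krt18 and Krt19 in simple epithelia such as gastric glands, Krt5 pairs with Krt14 in the basal layer of stratified squamous epithelia, Krt4 pairs with Krt13 above the basal layer of internal squamous linings, and Krt1 pairs with Krt10 above the basal layer of cornified epithelia. Krt6a, Krt6b, Krt16 and Krt17 are known for their induction after injury and for constant use in the oral mucosa, and hair-type keratins make up hair, nails and the filiform papillae of the tongue. The mouse stomach holds both a squamous-lined forestomach and a glandular part, whereas the main intermediate filament of heart and skeletal muscle fibres is desmin. Keratins are known from mesothelium and other minor cell types there, and which cells gave the keratin counts of these tissues was not tested.

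The genes lay in 2 clusters. On chromosome 11, 27 type I genes lay between 99232761 and 100269871, and on chromosome 15 the 25 type II genes and the type I gene Krt18 lay between 101347444 and 102032027 (GRCm38). No member shared exons with another gene on its own strand. RefSeq promoters (GRCm38.p6) were at hand for 36 of the 53 genes, in 37 windows. The letters TATAAA, read on both strands of the 250 bases before the start, occurred in 17 of the 37 (45.9%) against 12.4% of 32851 promoters of all genes. The GC box GGGCGG occurred in 2 of the 37 (5.41%) against 32.7%, the AP-1 motif TGANTCA in 2 (5.41%) against 6.75%, and the AP-2 motif GCCNNNGGC in 5 (13.5%) against 13.7%. A match describes these letters only. The 80 bases before the start are shown for a suprabasal, a simple and a hair-type keratin whose levels in stomach or tongue are given further on and whose promoters hold TATAAA, in capitals, and for a basal keratin and the leading pair of hair-type keratins of the tongue, in which these letters do not occur in the 80 bases. All lie on the minus strand and are written 5′ to 3′.
Krt10, chr11:99389365-99389444: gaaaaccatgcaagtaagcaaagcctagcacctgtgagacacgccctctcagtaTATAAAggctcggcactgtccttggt
Krt20, chr11:99438154-99438233: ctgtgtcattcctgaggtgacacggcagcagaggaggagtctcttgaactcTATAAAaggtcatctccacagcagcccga
Krt34, chr11:100041555-100041634: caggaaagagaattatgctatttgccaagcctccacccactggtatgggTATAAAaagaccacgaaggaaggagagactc
Krt5, chr15:101712906-101712985: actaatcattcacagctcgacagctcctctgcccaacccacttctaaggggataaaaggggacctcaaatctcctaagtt
Krt36, chr11:100105627-100105706: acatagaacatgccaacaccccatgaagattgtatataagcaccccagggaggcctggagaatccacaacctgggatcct
Krt84, chr15:101532821-101532900: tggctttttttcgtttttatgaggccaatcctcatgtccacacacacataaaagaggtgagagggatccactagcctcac
The first base of TATAAA stood 26 bases before the start in Krt10, 29 in Krt20 and 31 in Krt34.

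The samples held 14253416 to 18443329 counts each, so that 3 counts, taken as the smallest level that can be shown, were 0.163 to 0.210 CPM, where CPM is the count scaled to the normalised library total. The labels do not say that same-numbered samples came from separate or shared mice, so the p-values measure the spread between these samples. Control replicate 1 of every tissue held 3060 to 13811 counts of Xist, against at most 20 in any other sample, and at most 3 counts of the Y-linked Ddx3y, against at least 825. By these genes the control groups mixed the sexes and the SN-011 groups did not, and the part of sex in the differences was not tested. Muscle SN-011 replicate 2 had counts for 11546 genes, against at least 19798 in the other samples. Trex1 had 0 counts in all 24 samples, but its exons overlap those of Atrip and Shisa5 in the annotation, so this count does not check the genotype. The heart, muscle and tongue held their cardiac and skeletal muscle markers, and the stomach its gland markers, as labelled. Heart, muscle and tongue control replicates 2 and 3 also held more counts of gastric gland genes than the other samples of their tissue. The main differences that rest on these 6 samples are given with and without them. Same-numbered control samples deviated together between heart and muscle and between tongue and muscle, so calls between these tissues that changed with the number as a block are given too.

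Of the 53 genes, 51 had counts in some sample and 40 reached a mean of 1 CPM in at least 1 of the 8 groups. The other 13 were Krt2, Krt9, Krt25, Krt26, Krt27, Krt28, Krt40, Krt71, Krt72, Krt73, Krt77, Krt82 and Krt88, none with more than 14 counts in any sample, and Krt26 and Krt72 had 0 counts throughout. Among control samples, 38 members reached 1 CPM in the tongue, 22 in the stomach, 9 in the heart and 7 in the muscle. Keratins took 1.71%, 5.42% and 7.47% of all counts in the control tongues and 1.42%, 1.08% and 0.784% in the control stomachs. In the heart and muscle controls they took at most 0.0408%.

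**Figure D1:**
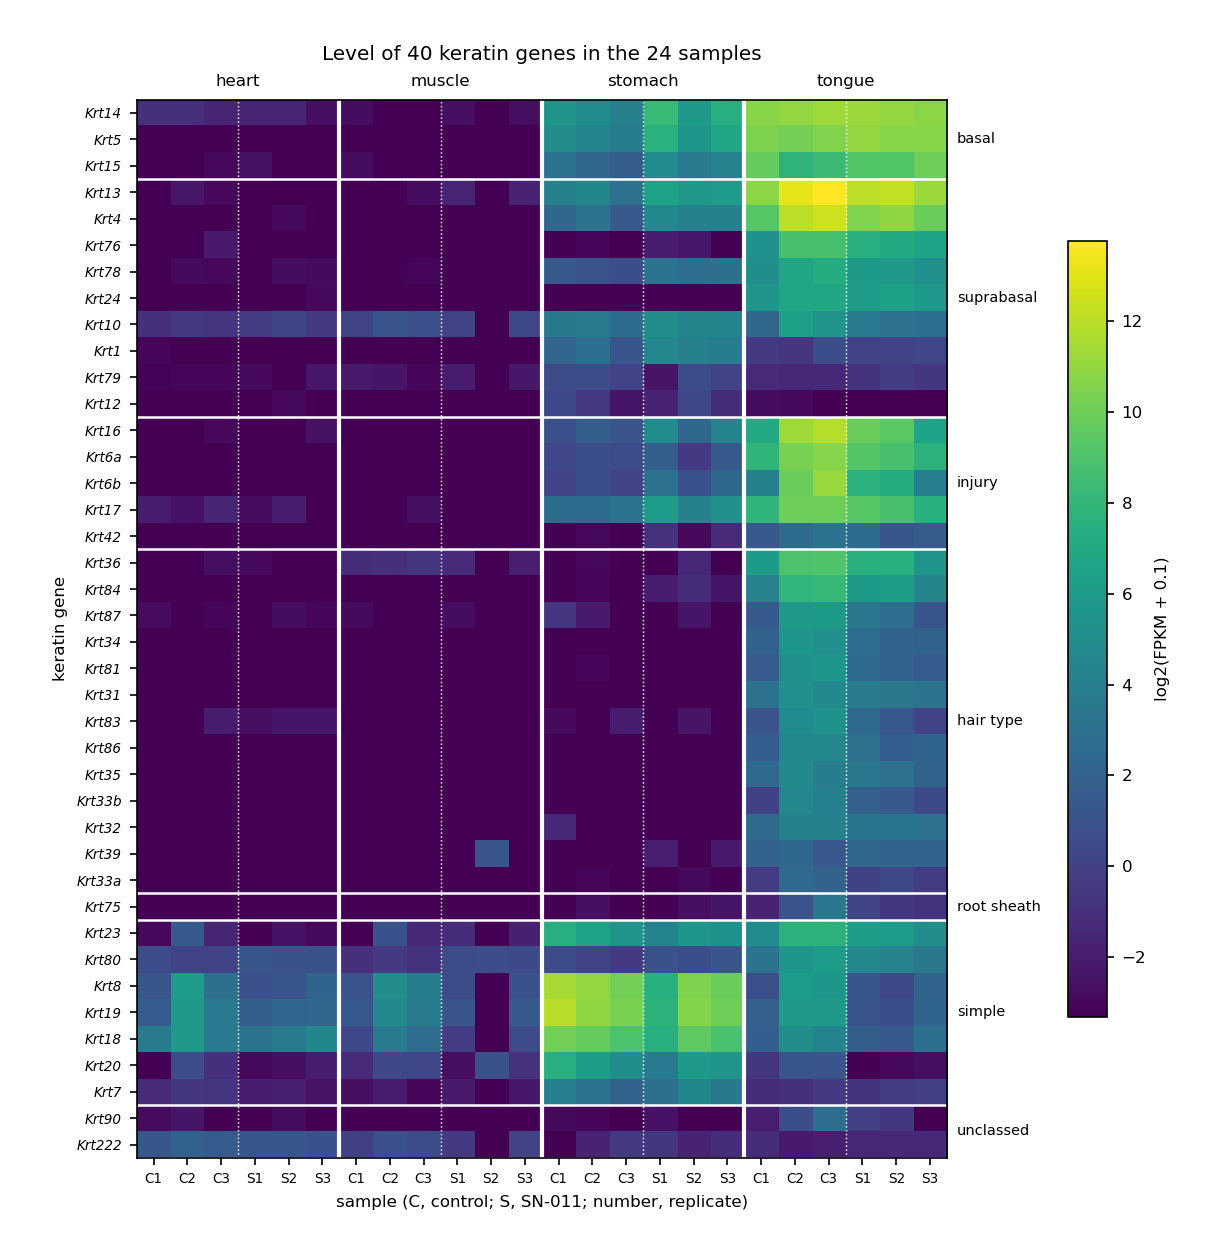
Levels of the 40 keratin genes that reached a mean of 1 CPM in a group, as log2(FPKM + 0.1) in each of the 24 samples, with genes in rows by class and samples in columns by tissue (C, control; S, SN-011). Hair-type keratins are bright in the tongue and, outside it, for Krt39 in muscle SN-011 replicate 2, simple keratins are brightest in the stomach, and control samples 2 and 3 of heart, muscle and tongue are brighter than the others of their tissue for Krt8 and Krt19.

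The classes of keratin split by tissue. Among control samples, 13 of 15 hair-type keratins reached 1 CPM in the tongue and 0 of 15 in the stomach, heart or muscle. Of the 8 keratins of the hair follicle's inner root sheath and companion layer, 1, Krt75, reached it in the tongue and 0 elsewhere. The 3 basal keratins reached it in tongue and stomach but in neither heart nor muscle. Of the 12 suprabasal keratins, 8 did so in the tongue and 7 in the stomach, whereas in heart and muscle Krt10 was the 1 above this level. The 5 injury-type keratins reached it in the tongue, and all but Krt42 in the stomach. All 7 simple keratins reached it in tongue, stomach and heart, and 5 in muscle. In the heart Krt20 (0, 3.38 and 0.856 CPM) and Krt23 (0.0544, 4.97 and 0.428 CPM) did so through control replicate 2, and in control replicate 1 alone 5 simple keratins stood at 1 CPM in the heart, 4 in the muscle and 7 in the tongue.

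Levels of different genes and tissues were compared per length, as FPKM. In the control tongue the highest was Krt13 at 8342 ± 6173 FPKM (SD, n = 3), followed by its partner Krt4 at 3596 ± 2695, Krt16 at 2157 ± 1843, Krt14 at 2128 ± 478 and Krt5 at 1331 ± 171. The spreads of the first 4 overlapped, and Krt16 alone ran from 140 to 3751 FPKM over the 3 samples. Of the hair-type keratins, Krt36 (371 ± 266 FPKM) and Krt84 (184 ± 144 FPKM), which make up tongue papillae, were the highest. In the control stomach the highest were Krt19 at 2376 ± 1371, Krt8 at 2099 ± 949 and Krt18 at 816 ± 323 FPKM, followed by Krt23 at 101 ± 60.1 and Krt20, a keratin of gastric surface cells, at 96.4 ± 71.0. The first 2 did not differ beyond their spread, nor did the last 2. Krt80, listed here with the simple keratins, stood at 42.3 ± 29.2 FPKM in the control tongue and at 1.05 ± 0.418 in the control stomach.

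The heart and muscle held the same simple keratins at far lower levels. In the control heart Krt18 stood at 27.5 ± 26.0, Krt19 at 26.1 ± 31.7, Krt8 at 25.2 ± 35.2, Krt222 at 3.03 ± 0.772 and Krt80 at 1.16 ± 0.238 FPKM. In the control muscle Krt8 stood at 17.2 ± 16.1, Krt19 at 15.2 ± 13.4, Krt18 at 6.81 ± 5.66, Krt10 at 1.60 ± 0.522 and Krt222 at 1.33 ± 0.455 FPKM. The SD of Krt8, Krt18 and Krt19 was near or above the mean in these tissues, and the order among the 3 cannot be drawn from them. Control replicate 1 held the least of the gland genes among the controls, at 0.0255% (heart) and 0.0815% (muscle) of the control stomach mean. In it Krt18 and Krt19 were at 12.5 and 3.10 FPKM in the heart and at 1.19 and 2.48 FPKM in the muscle. Krt8 was at 2.31 FPKM in the heart and had 45 counts in the muscle.

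Type I genes made up more of the keratin FPKM than type II genes in every sample. Their share was 64.7% to 67.7% in the 6 tongues and 58.4% to 68.0% in the 6 stomachs. It was 65.7% to 82.8% in the 6 hearts and 58.4% to 71.9% in the 6 muscles. Within the pairs, Krt4 was 0.346 to 0.468 of Krt13 in the tongue and 0.249 to 0.406 in the stomach. Krt5 was 0.556 to 0.964 of Krt14 in the tongue and 0.649 to 0.890 in the stomach. Krt84 was 0.301 to 0.536 of Krt36 in the tongue. Krt1, however, was 0.361 to 0.801 of Krt10 in the stomach and 0.0063 to 0.154 in the tongue. Krt8 was 1.06 to 2.70 of Krt18 in the stomach and 0.486 to 2.50 in the tongue. Krt6a was 0.115 to 0.680 of Krt16 in 5 stomachs and 0.437 to 2.08 in the tongue. Krt6b was 0.267 to 0.592 of Krt16 in the stomach and 0.123 to 0.592 in the tongue. Krt76 was 0.851 to 4.25 of Krt24 in the tongue.

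Differences between tissues were tested in control samples with edgeR's quasi-likelihood test in a joint fit of 19731 genes, 40 of them members, with Benjamini-Hochberg adjustment. The 13 others did not pass the filter on low counts. The 40 that did passed mostly through the tongue, so the filter fixed the direction of many differences in advance. Between tongue and stomach, 30 members were higher in the tongue (20% of all genes tested were) and 7 were lower (16.9% of all genes). Among the higher, the difference on the log2 scale was 8.97 ± 0.81 (SE) for Krt13, 9.30 ± 0.87 for Krt4, 6.08 ± 0.53 for Krt14 and 5.81 ± 0.51 for Krt5. Krt36 was among them with 0, 1 and 0 counts in the control stomachs, too few for a fold. The 7 higher in the stomach were the simple keratins Krt7, Krt8, Krt18, Krt19 and Krt20 with Krt1 and Krt12. On the same scale Krt8 differed by -5.71 ± 1.38 (adjusted p = 0.00278), Krt18 by -5.36 ± 0.98, Krt19 by -5.90 ± 1.27 and Krt1 by -2.37 ± 0.51 (adjusted p = 0.00194). Krt23, Krt79 and Krt222 did not pass the test. For Krt23 the difference was 0.51 ± 0.83. When control replicates 2 and 3 of heart, muscle and tongue were all left out, a setting chosen after seeing the data in which the lone controls are taken to vary like the other groups, 26 members were higher in the tongue (9.65% of all genes) and 6 lower (6.33%). Krt8 then differed by -10.26 ± 1.93, Krt18 by -7.94 ± 1.42, Krt19 by -9.36 ± 1.86 and Krt23 by -1.69 ± 0.76 (adjusted p = 0.157), so that the difference of Krt23 turned.

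Against heart, 33 members were higher in the tongue (15.5% of all genes) and 20 in the stomach (21.6%), and against muscle the counts were 33 (20%) and 20 (27.3%). Fitted alone, heart and muscle each had 7 members past the filter, so for most of these members the filter fixed the direction. The counts are therefore not read as an enrichment over all genes. Without the 6 control samples, 20 members were higher in the tongue than in the heart (2.82%) and 21 than in the muscle (3.39%), and 18 (8.42%) and 16 (11.2%) were higher in the stomach. The members higher in heart or muscle were few. Krt222, a type I-like gene whose product is not known as an epithelial marker, was higher in heart and in muscle than in both tongue and stomach (lower in the tongue by the same rule were 13.5% of all genes against heart and 18.1% against muscle, and in the stomach 21% and 24.3%). With the number as a block its difference between tongue and muscle was -2.39 ± 0.97 (adjusted p = 0.0631), and without the 6 samples none of the 4 passed (adjusted p = 0.142 to 0.826). Krt36 was higher in muscle than in stomach, at 7, 7 and 10 counts in the 3 muscle controls. Between heart and muscle, Krt14, Krt7 and Krt80 were higher in the heart (17.0% of all genes) and Krt36 in the muscle (16.7%). Krt7, a keratin of mesothelium among others, differed by 2.50 ± 0.68 on the log2 scale (adjusted p = 0.00731) and Krt80 by 1.27 ± 0.48 (adjusted p = 0.0471). Krt14 and Krt36 rested on at most 15 counts per sample. With any 1 control of heart or muscle left out, Krt14 and Krt7 passed and the other 2 did not. With the number as a block Krt80 missed the threshold (1.30 ± 0.52, adjusted p = 0.0688) and Krt18 passed it (2.00 ± 0.73, adjusted p = 0.0460), with 16.2% of all genes higher and 16.3% lower. Without the 6 samples 0 members passed, Krt7 at 2.31 ± 1.29 (adjusted p = 0.387).

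SN-011 was compared with control within each tissue, to ask whether the antagonist moved keratin levels. By edgeR's quasi-likelihood test with adjustment over all genes, 0 of 22 members tested passed 0.05 in the stomach and 0 of 39 in the tongue, where 0% of all genes tested did. In the heart 0 of 7 passed (0.848% of all genes) and in the muscle 0 of 7 (0.0141%). The stomach and the tongue, where the most members were tested, held most members with an unadjusted p under 0.05, 13 of 22 and 15 of 39. In the stomach 12 of these were higher (13.2% of all genes) and 1 lower (11.4%). In the tongue 13 were lower (7.33%) and 2 higher (5.17%). In the heart 3 of 7 were lower (11.6%) and 1 higher (10.8%), and in the muscle 2 of 7 were lower (5.80%) and 1 higher (8.96%). The sets of stomach and tongue shared only Krt5 and Krt10. Krt5 was higher in both tissues (2.37 ± 0.52 and 0.44 ± 0.17 on the log2 scale), and Krt10 was higher in the stomach and lower in the tongue. Over the members tested, the median difference between SN-011 and control on the log2 scale was 1.12 in the stomach, -1.28 in the tongue, -0.87 in the heart and -1.24 in the muscle. Over all genes tested the medians were 0.00, -0.01, -0.01 and -0.08. Without heart control replicate 2 the heart median was -0.28, and with control replicates 2 and 3 left out the medians were 0.30 in the heart, 0.65 in the tongue and -0.55 in the muscle, so that the direction turned in heart and tongue.

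In the stomach, 11 of the 14 basal, suprabasal and injury-type keratins tested stood higher in every SN-011 sample than in every control, the exceptions being Krt6a, Krt12 and Krt79. At an unadjusted p under 0.05, 12 of 22 members were higher after SN-011 (13.2% of all genes) and 1, Krt23, was lower (11.4%). The groups did not overlap for 12 members, all higher (17.8% of all genes, and 15.2% for lower). These 12 included the 3 basal keratins Krt5, Krt14 and Krt15 and the 5 suprabasal keratins Krt1, Krt4, Krt10, Krt13 and Krt78. The others were the 3 injury-type keratins Krt6b, Krt16 and Krt17, and Krt80, listed here with the simple keratins. The exceptions differed by 0.72 ± 0.59 on the log2 scale for Krt6a, -0.05 ± 0.97 for Krt12 and -0.64 ± 0.76 for Krt79. For each of the 12 members without overlap the exact two-sided permutation p was 0.1, the smallest that 3 samples against 3 allow.

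Krt78, a type II keratin of stratified epithelia (chromosome 15, 101946001 to 101954287), stood at 10.5, 8.54 and 6.79 CPM in the controls and at 38.9, 29.1 and 33.4 CPM after SN-011. The difference was 1.97 ± 0.27 on the log2 scale (adjusted p = 0.0618). Krt13 (chromosome 11, 100117327 to 100121566) stood at 37.4, 50.9 and 19.6 CPM and at 215, 128 and 155 CPM, a difference of 2.21 ± 0.39 (adjusted p = 0.0621). In both genes every treated stomach lay above every control.

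Krt17 (chromosome 11, 100256217 to 100261029), known for its rise in wounded and appendage epithelium, stood at 11.7, 12.1 and 17.6 CPM and at 129, 32.4 and 77.3 CPM, a difference of 2.52 ± 0.47 (adjusted p = 0.0657). Krt16 (chromosome 11, 100246091 to 100248902), its neighbour in the cluster, stood at 3.15, 6.55 and 4.28 CPM and at 59.4, 10.4 and 37.7 CPM, a difference of 2.94 ± 0.61 (adjusted p = 0.0708). Krt1 (chromosome 15, 101845426 to 101850794), the type II keratin of cornified layers, stood at 24.4, 39.2 and 12.7 CPM and at 130, 92.7 and 80.5 CPM, a difference of 1.99 ± 0.41 (adjusted p = 0.0708). In Krt16 and Krt17 SN-011 replicate 1 was the highest and replicate 2 the lowest of the treated samples.

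The basal pair followed the same order of samples. Krt5 stood at 88.3, 55.9 and 41.8 CPM in the controls and at 526, 133 and 301 CPM after SN-011. Krt14 stood at 94.1, 66.2 and 37.6 CPM and at 638, 129 and 371 CPM. Neither pair of groups overlapped, and SN-011 replicate 1 was again the highest and replicate 2 the lowest treated sample.

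The simple keratins of the gastric glands went the other way but with overlapping groups. Krt8 stood at 6954, 4904 and 2789 CPM in the controls and at 448, 3427 and 2385 CPM after SN-011. Krt19 stood at 8457, 4297 and 2929 CPM and at 491, 3529 and 2313 CPM. SN-011 replicate 1 was far below all other stomachs for both, and the remaining 2 treated samples lay within or just below the control range. The differences on the log2 scale were -1.23 ± 0.75 for Krt8 and -1.31 ± 0.76 for Krt19, with 95% intervals of -2.70 to 0.25 and -2.80 to 0.19. Krt20 and Krt23 had the same lowest sample, at 30.3 and 39.6 CPM. As shares of the keratin FPKM, simple keratins made up 98.3%, 97.5% and 97.6% in the controls and 42.9%, 93.4% and 83.7% after SN-011, and basal keratins 1.04%, 1.11% and 1.17% and then 36.1%, 2.97% and 9.77%.

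**Figure D2:**
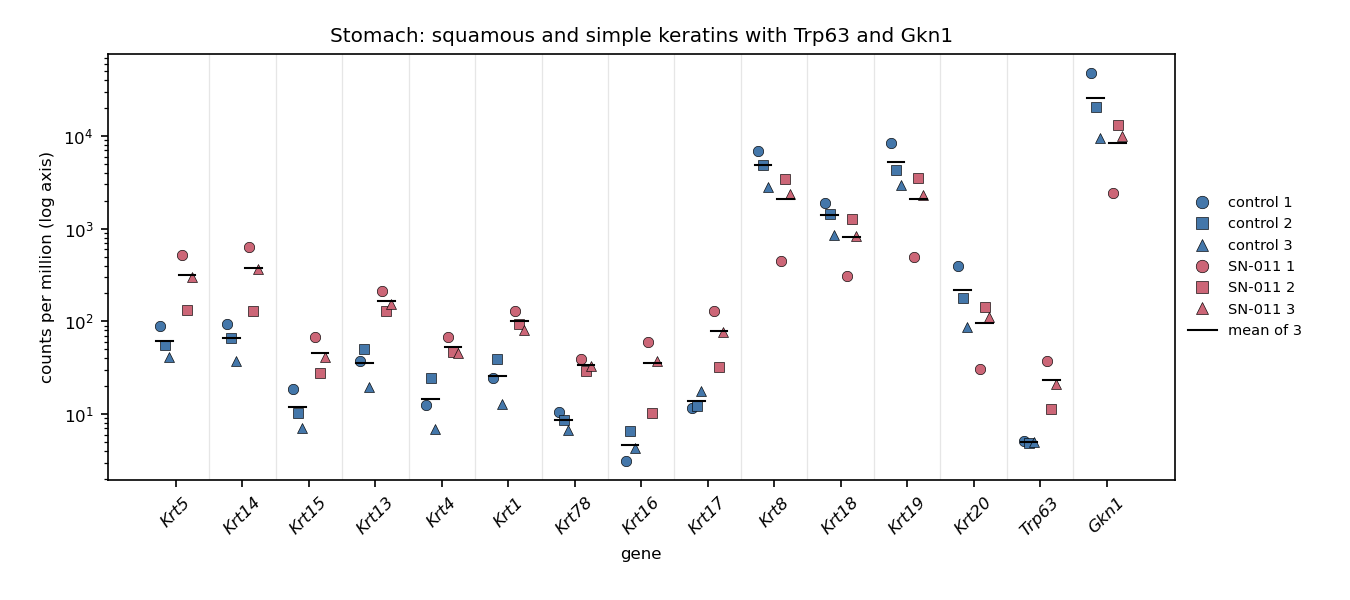
Level in CPM (log axis) of 13 keratins, Trp63 and the gland gene Gkn1 in the 3 control and 3 SN-011 stomachs, 1 point per sample with bars at the mean. All SN-011 points lie above all control points for Krt5 through Krt17 and Trp63, whereas the SN-011 replicate 1 point is the lowest for Krt8, Krt18, Krt19, Krt20 and Gkn1.

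Markers of other cell types were set beside the keratins in the same samples. Trp63, the transcription factor of squamous basal cells, stood at 5.16, 4.86 and 4.97 CPM in the control stomachs and at 37.4, 11.3 and 21.1 CPM after SN-011. Of 14 squamous markers that are not keratins, 9 were higher and 0 lower at an unadjusted p under 0.05, with a median difference of 1.71 on the log2 scale, although their summed level overlapped (229 to 943 CPM in controls and 774 to 915 CPM after SN-011). Of 5 mesothelium markers, 3 were higher, with sums of 27.5, 23.2 and 58.1 CPM and then 180, 69.5 and 256 CPM. Of 10 gastric gland markers, 1 was higher and 1 lower, with sums of 165450, 82866 and 50467 CPM and then 23724, 126754 and 49701 CPM. The summed level of 5 pan-epithelial markers was lower in each treated stomach, at 1389, 1698 and 1188 CPM and then 230, 871 and 595 CPM. The part of these cell types in the keratin differences was not tested, the portion of stomach taken is not given in the sources used here, and in bulk tissue fewer cells of a type and less RNA per cell cannot be told apart.

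The partners of keratins in the stomach differed in both directions. Of 21 desmosome and keratin-linked genes, 19 were tested and 0 passed 0.05. At an unadjusted p under 0.05, 7 were higher and 4 lower. The higher were Pkp1, Dsg3, Evpl, Ppl, Dst, Col17a1 and Tchh, and the lower were Dsp, Pkp2, Dsc2 and Itga6. Pkp1, the plakophilin of stratified epithelia, stood at 8.87, 10.3 and 7.11 CPM in the controls and at 65.0, 23.8 and 41.3 CPM after SN-011 (adjusted p = 0.0618). Dsp, the desmoplakin that anchors keratins in all desmosomes, stood at 234, 263 and 220 CPM and at 80.9, 139 and 118 CPM (adjusted p = 0.0919). Neither gene's groups overlapped. Of 16 epithelial transcription factors, 13 were tested, with 3 higher and 1 lower by the unadjusted test and 0 by the adjusted one.

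How many stomach keratins passed depended on the test. DESeq2 and edgeR's exact test each called 11 members higher (7.50% and 6.58% of all genes higher), all of them squamous keratins. With bias-adjusted deviances, chosen after seeing the data, 3 members were called (0.904% of all genes), and with the replicate number as a block 5 (0.934%). Left out in turn, the samples gave 0 to 2 members, with 1, Krt78, called without control replicate 1 (0.290% of all genes) and 2, Krt16 and Krt17, without SN-011 replicate 2 (0.313%).

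In the tongue, the most abundant keratins of the differentiated layers and papillae stood lower after SN-011 than in control replicates 2 and 3, while control replicate 1 was low as well. At an unadjusted p under 0.05, 13 of 39 members were lower (7.33% of all genes) and 2 higher (5.17%). The groups did not overlap for Krt20, which was lower (8.38% of all genes), and for Krt5 and Krt79, which were higher (9.40%). By class, 8 of 13 hair-type, 4 of 7 simple and 1 of 8 suprabasal keratins were lower, against 0 of 3 basal and 0 of 5 injury-type keratins. The suprabasal Krt79 went the other way, at 1.87, 1.49 and 1.69 CPM in the controls and 2.57, 3.82 and 3.11 CPM after SN-011, and the hair-type Krt39 and the suprabasal Krt1 differed by 0.21 ± 0.31 and 0.18 ± 0.45 on the log2 scale.

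The largest keratins of the tongue spread widely among its controls. Krt13 stood at 3919, 19523 and 30255 CPM in the controls and at 9026, 10348 and 5191 CPM after SN-011, and Krt4 at 1590, 10695 and 14815 CPM and then 3775, 4956 and 2466 CPM. Krt6b, of the injury type, stood at 45.8, 2510 and 5863 CPM and at 531, 411 and 44.2 CPM. In each of these, control replicate 1 lay at the low end and the other controls above all treated samples. Krt16 had the same pattern, at 262, 4725 and 6936 CPM and then 1715, 1273 and 184 CPM.

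Hair-type keratins of the papillae followed this order too. Krt36 stood at 129, 1004 and 1059 CPM in the controls and at 367, 371 and 91.9 CPM after SN-011, and Krt84 at 61.6, 754 and 896 CPM and then 200, 224 and 68.6 CPM. Krt34 (chromosome 11, 100037347 to 100041554) stood at 7.50, 98.0 and 74.8 CPM and at 13.4, 7.89 and 7.47 CPM, a difference of -2.64 ± 0.81 on the log2 scale (adjusted p = 0.316). Krt81 (chromosome 15, 101459061 to 101463751) stood at 7.39, 96.1 and 125 CPM and at 15.3, 10.3 and 7.85 CPM, a difference of -2.77 ± 0.87 (adjusted p = 0.327). Summed over the hair-type keratins, the level was 281, 2502 and 2653 CPM in the controls and 749, 727 and 255 CPM after SN-011.

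The basal keratins did not follow. Krt5 (chromosome 15, 101707070 to 101712898) stood at 3527, 2968 and 3886 CPM in the controls and at 5184, 4340 and 4581 CPM after SN-011, a difference of 0.44 ± 0.17 on the log2 scale (adjusted p = 0.372). Krt14 stood at 3531, 4271 and 5461 CPM and at 4787, 4217 and 3803 CPM, a difference of -0.05 with a 95% interval of -0.45 to 0.35. Trp63 was likewise close across samples, at 198, 175 and 231 CPM and then 179, 183 and 190 CPM. Krt15, a basal keratin of resting cells, stood at 1815, 456 and 685 CPM and at 1166, 1177 and 2195 CPM, so that control replicate 1 was high here and low for the layers above. Basal keratins made up 53.5%, 13.8% and 12.6% of the keratin FPKM in the controls and 35.6%, 31.6% and 52.1% after SN-011.

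**Figure D3:**
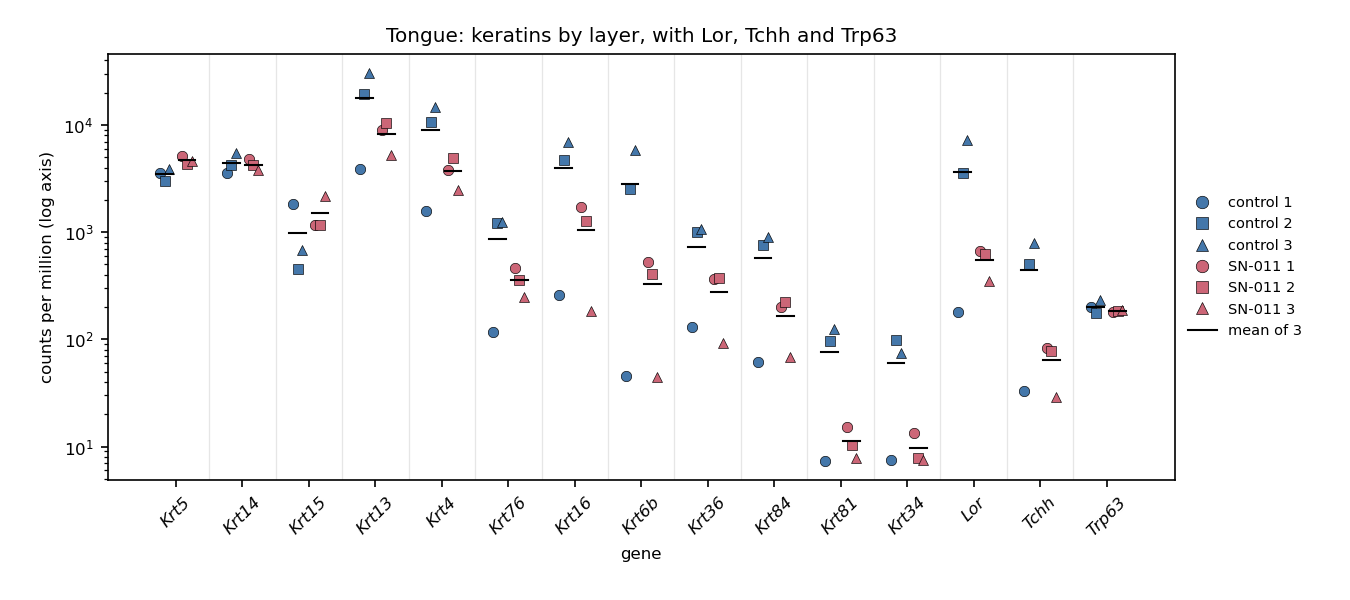
Level in CPM (log axis) of 12 keratins with Lor, Tchh and Trp63 in the 3 control and 3 SN-011 tongues, 1 point per sample with bars at the mean. Control replicate 1 falls among or below the SN-011 samples for Krt13 through Krt34, Lor and Tchh, while Krt5, Krt14 and Trp63 lie close together in all 6 samples.

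Markers of cornified layers were high in the same tongues as these keratins. Lor, the loricrin of the cornified envelope, stood at 178, 3551 and 7274 CPM in the control tongues and at 669, 620 and 353 CPM after SN-011. Tchh, the trichohyalin that cross-links hair-type keratin bundles, stood at 33.2, 503 and 789 CPM and at 82.8, 78.4 and 29.2 CPM. The sum of 10 skin and hair markers was 464, 5576 and 9986 CPM and then 1672, 1468 and 744 CPM. Of 21 desmosome and keratin-linked genes, 6 were lower and 1 higher at an unadjusted p under 0.05, and of 16 epithelial transcription factors 3 were lower, with 0 of either list past 0.05 after adjustment.

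A single control decided the count in the tongue. Without control replicate 1, the one with Xist, 26 of 39 members passed 0.05, with Krt15 higher (4.41% of all genes) and 25 lower (8.04%). The controls were then replicates 2 and 3 alone, which held the most of the gastric gland genes among the tongues. With control replicates 2 and 3 left out instead, Krt76 alone passed, as higher (0.227%), and the median difference over members was 0.65 on the log2 scale in place of -1.28. Of the 39 members, 32 then had a difference of the opposite sign. DESeq2 called 2 members lower (1.69% of all genes), Krt19 and Krt20, and edgeR's exact test called 3 (1.09%).

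Krt8 and Krt19 in tongue, heart and muscle, and Krt18 in tongue and muscle, were highest in control replicates 2 and 3. These libraries also held the most of the gastric gland genes. In the heart Krt18 was highest in control replicate 2. There control replicate 3, at 1.54% of the control stomach mean, lay below SN-011 replicates 2 and 3 (1.63% and 2.75%). Krt7 was highest in control replicates 2 and 3 in the heart alone, and Krt80 in the tongue alone. Krt20 in the tongue stood at 1.25, 5.24 and 4.93 CPM in the controls and had 0, 1 and 2 counts after SN-011, so that its fitted difference of -5.77 ± 0.91 on the log2 scale (adjusted p = 0.263) is no measured fold. Krt19 there stood at 8.01, 125 and 127 CPM and at 4.54, 3.56 and 10.1 CPM, a difference of -3.84 ± 0.97 (adjusted p = 0.281). Krt8 stood at 3.98, 152 and 121 CPM and at 5.25, 2.91 and 9.78 CPM, a difference of -3.94 ± 1.15 (adjusted p = 0.299). For both, control replicates 2 and 3 were high and control replicate 1 lay with the treated samples.

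Summed over 10 gastric gland markers, such as gastrokines, mucins and the proton pump, tongue control replicates 2 and 3 held 2.97% and 2.50% of the mean of the control stomachs, and the other tongues at most 0.0435%. Krt8 in these 2 samples was 3.15% and 2.48% of its level in the control stomachs, Krt19 2.43% and 2.44%, and Krt18 4.35% and 2.56%. Heart control replicate 2 held 2.71% for the gland markers, with 3.13% for Krt8 and 2.62% for Krt19, and control replicate 3 held 0.309%, with 0.367% and 0.540%. Muscle control replicates 2 and 3 held 1.37% and 0.600%, with 1.63% and 0.734% for Krt8. No other heart or muscle sample was above 0.0815% for the gland markers. Of the 10 markers, 9 were tested in the tongue and 8 each in heart and muscle, and 9, 8 and 7 of them were lower after SN-011 at an unadjusted p under 0.05. With control replicates 2 and 3 left out, the difference of Krt8 between SN-011 and control was 0.59 on the log2 scale in the tongue and 0.32 in the heart, and that of Krt19 in the heart 0.51, in place of -3.94, -3.14 and -2.58. Krt19 in the tongue then differed by -0.40 ± 0.51.

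**Figure D4:**
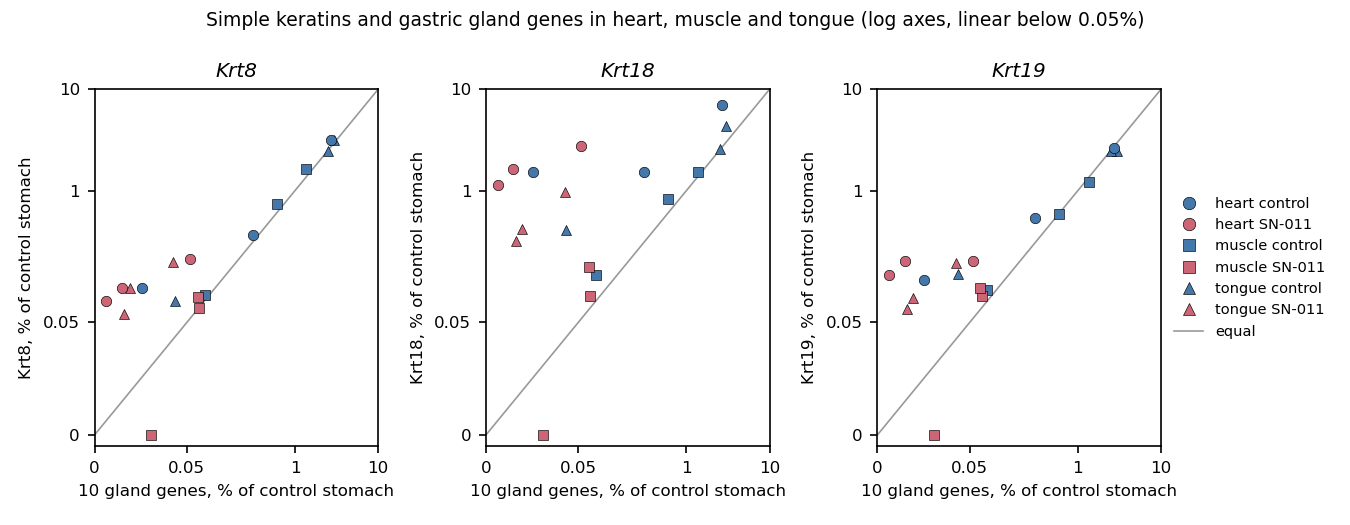
Level of Krt8, Krt18 and Krt19 (vertical) against the summed level of 10 gastric gland genes (horizontal) in the 18 heart, muscle and tongue samples, each as a percentage of the control stomach mean, on log axes that are linear below 0.05%. For Krt8 and Krt19 the 6 control replicates 2 and 3 lie near the line of equal percentages, and heart samples lie above it for Krt18.

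In the heart, Krt7 and Krt80 were the 2 of 7 members tested whose groups did not overlap. Of the 7, 1 was lower (13.1% of all genes) and 1 higher (14.1%), close to the shares of all genes. Krt8 stood at 5.01, 145 and 16.8 CPM in the controls and at 3.76, 5.06 and 9.84 CPM after SN-011 (-3.14 ± 1.04 on the log2 scale, adjusted p = 0.134), and Krt19 had 117, 1879 and 496 counts and then 108, 150 and 159 counts (-2.58 ± 0.85, adjusted p = 0.133). Control replicate 2 was the highest for both. Krt7 (chromosome 15, 101411043 to 101430313) stood at 2.39, 4.49 and 3.90 CPM and at 1.21, 1.45 and 0.694 CPM without overlap, a difference of -1.68 ± 0.39 (adjusted p = 0.0760). The 5 mesothelium markers summed to 77.1, 70.0 and 130 CPM in the same controls and to 56.9, 76.1 and 40.0 CPM after SN-011, and 3 of the 5 were lower and 1 higher at an unadjusted p under 0.05. Their part in the Krt7 difference was not tested. Control replicates 2 and 3, the highest for Krt7, also held the most of the gastric gland genes, whose part was not tested either. Krt222 had 153, 205 and 205 counts and then 125, 131 and 108 counts (-0.49 ± 0.23, adjusted p = 0.248). At an unadjusted p under 0.05, 3 of the 7 members were lower (11.6% of all genes) and 1 higher (10.8%). DESeq2 called Krt80 higher (4.35% of all genes) and Krt7 lower (4.04%).

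Krt80, a type II keratin (chromosome 15, 101347444 to 101370162), was higher in every SN-011 sample than in every control in 3 of the 4 tissues. In the heart it stood at 10.2, 7.53 and 7.17 CPM in the controls and at 16.5, 13.0 and 12.7 CPM after SN-011, a difference of 0.76 ± 0.20 on the log2 scale (adjusted p = 0.0931), where 14.1% of all genes were higher without overlap and 13.1% lower. In the muscle it stood at 1.53, 2.32 and 1.77 CPM and at 5.32, 7.26 and 4.93 CPM, a difference of 1.64 ± 0.43 (adjusted p = 0.199), where 14.7% of all genes were higher without overlap and 19.8% lower. In the stomach it stood at 11.1, 7.73 and 5.14 CPM and at 14.1, 12.5 and 16.7 CPM, a difference of 0.86 ± 0.36 (adjusted p = 0.186). There 17.8% of all genes were higher without overlap and 15.2% lower. In the tongue it stood at 73.4, 386 and 496 CPM and at 191, 142 and 88.3 CPM, with overlap and a difference of -1.18 ± 0.63. On the other strand its exons overlap those of Gm35853. Whether same-numbered samples of different tissues are from 1 mouse is not given, so the 3 tissues may not be independent.

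The other muscle keratins were at 40.3 CPM or less. Krt8 stood at 2.37, 40.3 and 18.0 CPM in the controls and at 1.75, 0 and 2.21 CPM after SN-011, a difference of -3.90 ± 1.35 (adjusted p = 0.277), with no overlap. The 0 is the sample with few genes detected. Krt19 (-3.20 ± 1.31, adjusted p = 0.332), Krt18 (-3.18 ± 1.35, adjusted p = 0.348) and Krt222 (-1.24 ± 1.24, adjusted p = 0.701) overlapped between the groups. The muscle differences without control replicates 2 and 3 were -0.84 ± 2.50 for Krt8, -0.66 ± 2.47 for Krt19 and -0.73 ± 2.68 for Krt18. At an unadjusted p under 0.05, 1 of 7 members was higher (8.96% of all genes) and 2 lower (5.80%). Without SN-011 replicate 2, Krt80 passed 0.05 (3.60% of all genes higher), and DESeq2 called Krt8 lower (2.90%).

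The stomach and the tongue were compared by a test of the interaction in the joint fit. The SN-011 effect on Krt78 was lower in the tongue than in the stomach by 2.81 ± 0.57 on the log2 scale (adjusted p = 0.0351), and it was the 1 member of 40 to pass (0.613% of all genes were lower by this rule and 0.208% higher). For Krt78 the stomach values are given above, and in the tongue it stood at 148, 420 and 611 CPM in the controls and at 254, 231 and 160 CPM after SN-011. At an unadjusted p under 0.05, 15 members were lower in the tongue (8.83% of all genes) and 0 higher (6.54%). Krt14 differed by -2.52 ± 0.62 (adjusted p = 0.0539) and Krt13 by -3.29 ± 0.83 (adjusted p = 0.0636). With 1 sample left out in turn, the number of members called ran from 0 to 10, with 10 lower without tongue control replicate 1 (0.983% of all genes) and 8 without stomach SN-011 replicate 2 (2.11%). Krt78 missed the threshold with samples of 1 treatment and number as a block (-2.62 ± 0.60, adjusted p = 0.0713), where Krt84 passed instead (0.269% of all genes). In the stomach, however, Krt84 stood at 0 to 0.0624 CPM in the controls and at 0.307 to 1.19 CPM after SN-011, too low for a fold. Without control replicates 2 and 3 of heart, muscle and tongue the difference of Krt78 was -1.37 ± 0.51.

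The effect on Krt14 also differed between stomach and heart, by 3.43 ± 0.78 on the log2 scale (stomach minus heart, adjusted p = 0.0291, with 2.01% of all genes passing in either direction), where the heart held 15, 11 and 9 counts in the controls and 7, 7 and 2 after SN-011. Without the 6 control samples it was 3.68 ± 1.06 (adjusted p = 0.431).

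Some members are so alike that their counts could be mixed. Of the 100-base windows in the transcripts of Krt6a, 42.9% occurred in another gene, mostly Krt6b, and for Krt6b 30.6%, mostly Krt6a. For Krt12 29.0% were shared, mostly with A830036E02Rik, whose exons overlap it on the other strand. For Krt81 25.0% were shared, mostly with Krt86, for Krt16 24.3%, mostly with Gm11597, for Krt34 17.6%, and for Krt8 17.1%, mostly with its pseudogene Krt8-ps. The windows were shorter than the reads by the study's methods. The counts are of uniquely mapped pairs by the study's methods, so these genes may be undercounted and their values are less certain than those of the other members named.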

How the data were processed

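The authors trimmed paired reads of polyA+ RNA with Trimmomatic, mapped them with hisat2 and deposited, for each of the 24 samples, the number of read pairs assigned to a gene as a raw, unscaled count. The study's methods name featureCounts and uniquely mapped pairs, while the submitters' processing notes list HISAT2, HTSeq and mm10 with no versions. Symbols, positions and exon lengths came from GENCODE release M21, which held 54495 of the 54532 identifiers. The members and lists were chosen with earlier results of these data known.

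The quasi-likelihood test of edgeR 4.0.16 under R 4.3.3 was applied after TMM scaling. Genes passed filterByExpr at a count of 10 and a total of 15, and 0.125 was the prior count. Each tissue was fitted alone for SN-011, and tissues and interactions were fitted over all 24 samples. Benjamini-Hochberg adjustment covered every gene tested, and 0.05 was the threshold. CPM used the scaling within a tissue, and FPKM that over all samples. SE is the log2 difference over the square root of F. Pairing was checked by correlating the deviations of same-numbered samples from their group means, in log2 CPM over 10522 genes. The labels do not give it. All same-numbered controls correlated above 0.1 for heart and muscle (0.24 to 0.524) and for tongue and muscle (0.164 to 0.431). Those of tongue and heart did so for replicates 1 and 2 (0.469 and 0.433) but not for replicate 3 (0.0738). Whether such correlations come from shared mice was not tested. Single values were also compared by exact two-sided permutation of 3 samples against 3. Floors cover counting error only.

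Named were, per tissue, the 5 members with the highest FPKM in controls, any member past the threshold and the 5 with the smallest p and a mean of at least 1 CPM. Other members with such a mean in any group are given by their levels, and markers came from fixed lists. Settings were varied by another scaling (size factors of DESeq2 1.42.0, or totals), by omitting the filter, by DESeq2 itself, by edgeR's exact test, by bias-adjusted deviances, by a replicate block, by fitting tissues together and by leaving out samples. The fits were tested on simulated data. Tables and figures used Python 3.11.15 with pandas, numpy, scipy and matplotlib.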

Additional observations from a re-analysis of the deposited data

Results flagged for a closer look

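Both results below were picked out because the effect of SN-011 differed between tissues by a test of the interaction over all genes in the joint fit. The effect on Krt78 differed by -2.81 ± 0.57 on the log2 scale between tongue and stomach (tongue minus stomach, adjusted p = 0.0351). The stomachs were all higher after SN-011 (3 of 3 above every control), and the tongues overlapped with the controls. The effect on Krt14 differed by 3.43 ± 0.78 between stomach and heart (stomach minus heart, adjusted p = 0.0291). Krt14 in the heart rested on 15, 11 and 9 counts in the controls and 7, 7 and 2 after SN-011, below 1 CPM in each group. With control replicates 2 and 3 of heart, muscle and tongue left out, the adjusted p was 0.412 for Krt78 and 0.431 for Krt14, and with samples of 1 treatment and number as a block it was 0.0713 for Krt78.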

How the results depend on the processing

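The number of keratin genes called after SN-011 was 0 in each tissue by the quasi-likelihood test. It rose with no filter on low counts to 1 for tongue, 12 for stomach and 7 for heart, 6 of the 7 lower. With no filter 0.0461% of all genes were lower in the tongue and 3.92% in the heart. In the stomach 3.15% were higher and 1.84% lower. DESeq2 called 2, 1, 11 and 2 members for tongue, muscle, stomach and heart, in this order, and edgeR's exact test 3, 0, 11 and 3. By DESeq2, 1.69% of all genes were lower in the tongue, 2.90% lower in the muscle and 7.50% higher in the stomach. In the heart it called 4.35% higher and 4.04% lower. By the exact test 1.09% were lower in the tongue, 6.58% higher in the stomach and 2.79% lower in the heart. In the stomach bias-adjusted deviances, chosen after seeing the data, gave 3 (0.904% of all genes higher) and the joint fit 9 (6.70%). Leaving out each replicate in turn gave 0 to 26 for tongue, 0 to 1 for muscle, 0 to 2 for stomach and 0 to 1 for heart. At the highest counts, 4.41% of all genes were higher and 8.04% lower in the tongue. By the same rule 3.60% were higher in the muscle, 0.313% higher in the stomach and 0.464% lower in the heart. With control replicates 2 and 3 both left out, also chosen after seeing the data, 1 was called in the tongue, the median difference on the log2 scale turned to 0.30 in the heart and 0.65 in the tongue, and single differences turned to 0.51 for Krt19 and 0.32 for Krt8 in the heart and to 0.59 for Krt8, 0.36 for Krt34 and 0.60 for Krt81 in the tongue. The lone control is then taken to vary like the treated samples. In the joint fit, whose 40 members include genes absent from a tissue, the median was 0 in heart and muscle and 0.60 in the stomach. With each replicate left out the medians ran from -1.78 to -0.94 for tongue, -2.06 to -1.03 for muscle, 0.98 to 1.55 for stomach and -1.57 to -0.28 for heart. The interaction of tongue and stomach gave 3 members with DESeq2's size factors, 5 with library size alone, 9 with no filter and 10 with DESeq2. With a replicate left out it gave 0 to 10, the 10 without tongue control replicate 1. By these settings, in the same order, 0.968%, 1.25%, 0.807%, 3.42% and 0.983% of all genes were lower in the tongue. Between heart and muscle 2 members, Krt14 and Krt7, were called with any 1 control left out, in place of 4. Without control replicates 2 and 3 of tongue, muscle and heart, chosen after seeing the data, 20 members differed between tongue and heart, 21 between tongue and muscle and 0 between heart and muscle, and 0 had an interaction of tongue and stomach. Other causes of these changes were not tested.

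The replicate numbers did not pair control with SN-011 samples within a tissue, since same-numbered control and SN-011 samples did not all correlate above 0.1 in any tissue (lowest -0.368, highest 0.272). Between tissues, same-numbered controls of heart and muscle and of tongue and muscle all correlated above 0.1, which the other pairs of tissues did not. With the replicate number as a block, 5 stomach members passed and the other counts stayed within 1.5 times. Krt84, at no more than 0.0624 CPM in the control stomachs, took the place of Krt78 in the interaction of tongue and stomach. Krt18 took that of Krt80 between heart and muscle, and calls were lost for Krt10 (tongue and stomach) and Krt222 (muscle with tongue or stomach). With 3 samples per group, no single value could reach an exact permutation p under 0.1.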
